A study of Solanum lycopersicum with 8 samples.

Results

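The measurements describe how the response of tomato leaves to neutralized phosphorous acid (NPA) differed between a harvest at 6 h and a harvest at 12 h. The NPA effect, NPA minus water, was taken at each harvest within each same-numbered repeat, and the effect at 6 h was subtracted from the effect at 12 h. A value above 0 therefore means that NPA leaves stood higher against water leaves at 12 h than at 6 h. All 8 arrays of the series entered: 2 of water at 6 h, 2 of NPA at 6 h, 2 of water at 12 h and 2 of NPA at 12 h. Each array (Affymetrix Tomato Genome Array) carried leaf RNA pooled from 5 plants of cultivar Summer sweet, 1 array per group in each of 2 repeats of the experiment. NPA held phosphorous acid at 1 g per litre, brought to pH 6.3 with potassium hydroxide and sprayed to run-off, and water was the sole control spray, so a potassium effect cannot be told apart from one of phosphorous acid. Plants stood in a 12 h photoperiod, so time after spraying and hour of day cannot be told apart. The table held 8488 probe sets, of which 84 array controls were left out and 8404 were analysed. A gene symbol was given for 753 of the 8404, covering 688 genes, and 7651 were unnamed.

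Salts of phosphorous acid, called phosphites, protect crops against oomycetes such as Phytophthora, both by acting on the pathogen and by raising the plant's own defences. Leaf defence runs through several hormone routes. Jasmonate, made from plastid fatty acids by allene oxide synthase and allene oxide cyclase, and ethylene act through transcription factors of the ERF and MYC families. Salicylic acid acts through NPR1 and raises secreted pathogenesis-related (PR) proteins, among them PR-1 proteins, glucanases and chitinases that attack microbial walls.

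Values are log2 expression as deposited, and differences are on that log2 scale. Medians of the arrays lay between 8.77 and 8.83, so each difference is relative to the bulk of probe sets on the same array. The array controls left out of the fits did not all stay level. The 36 poly-A control probe sets, which read bacterial RNA that can be added to a sample before labelling, averaged 7.94 and 7.40 in water and 8.05 and 7.99 in NPA at 6 h, and 8.14 and 7.98 in water and 7.29 and 7.09 in NPA at 12 h (repeats 1 and 2). Both NPA arrays at 12 h lay below the other 6, and the water array of repeat 2 at 6 h lay below the other 5. Their median difference between the effects was -1.21, and single control probe sets ranged from -1.53 to -0.94. The 27 hybridization controls, which are added after labelling, had a median of -0.06. The labels do not say how much poly-A control was added, and the part of this shift in the results below was not tested. Scaling each array to these controls would move the median difference over all 8404 probe sets by 1.22, the effect at 6 h by -0.35 and the effect at 12 h by 0.87. Every direction below is relative to the bulk of each array, and counts under that scaling are given beside the classes.

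**Figure D1:**
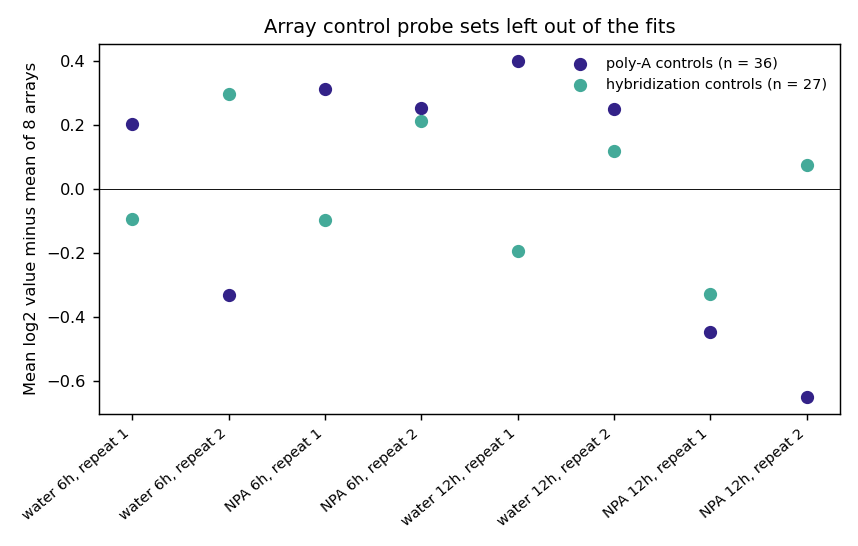
Mean log2 value of the 36 poly-A control and 27 hybridization control probe sets on each of the 8 arrays, minus the mean of the 8 arrays. The 2 NPA arrays at 12 h hold the lowest poly-A values, at 7.29 and 7.09 before centring.

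No probe set passed an adjusted p under 0.05 for the change of the NPA effect between harvests in limma, with Benjamini-Hochberg adjustment over 8404 probe sets (0%), and the count was also 0 with the repeat as a block. At an unadjusted p under 0.05 there were 1123 (13.4%), of which 668 were above 0 (7.95%) and 455 below 0 (5.41%), and 1864 with the block (22.2%). Without the water array of repeat 2 at 12 h the count was 649, and without the water array of repeat 2 at 6 h it was 686. The smallest p among named genes belonged to SPM1, which stood 1.97 lower against water at 12 h than at 6 h (SE 0.16, adjusted p = 0.0761, and 0.0614 with the block). For scale, limma called 14 probe sets for the NPA effect at 6 h (0.167%), 1 for that at 12 h (0.0119%), 1867 for the time change in water (22.2%) and 2183 for that in NPA (26%). With the repeat as a block these counts were 108 (1.29%), 0 (0%), 3144 (37.4%) and 3401 (40.5%). The single genes below are therefore described by their values, and "faded", "persisted", "grown" and "reversed" name patterns of size and sign that were not tested.

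The repeats shared no array and ordered the probe sets alike. Across the 8404 probe sets the difference of effects correlated between repeats at r = 0.669, where probe sets are not independent replicates. The repeats differed in size: the SD over probe sets was 0.432 in repeat 1 and 0.620 in repeat 2. In repeat 1, 103 probe sets stood at 1 or more and 174 at -1 or less, whereas in repeat 2 these counts were 440 and 269. Probe sets picked in one repeat kept their sign in the other. Of the 103 at 1 or more in repeat 1, 95 were above 0 in repeat 2 (92.2%, against 47.4% of all probe sets), with a median of 1.85. Of the 174 at -1 or less, 163 were below 0 in repeat 2 (93.7%, against 51.9%), with a median of -1.12. In the other direction the shares were 95% of 440 and 94.8% of 269, with smaller medians in repeat 1 of 0.62 and -0.78. The effects themselves related differently to each other in the 2 repeats. The effect at 6 h and the effect at 12 h correlated across probe sets at r = 0.632 in repeat 1 and at r = -0.155 in repeat 2.

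**Figure D2:**
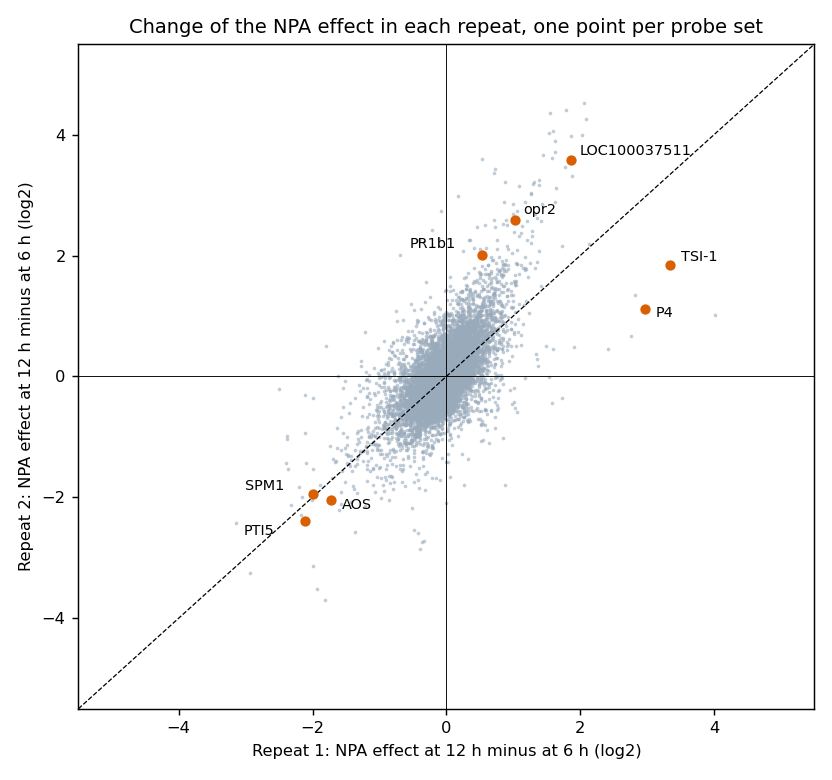
Change of the NPA effect (effect at 12 h minus effect at 6 h, log2) in repeat 1 on the x axis and repeat 2 on the y axis, 1 point per probe set (n = 8404), with the line of equality dashed. Of 2685 probe sets above 0 in both repeats 1920 are larger in repeat 2, while TSI-1 and P4 lie on the repeat 1 side.

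An effect was called present where both repeats had the same sign and their mean was at least 1. By that measure 276 probe sets responded at 6 h (3.28%), 230 higher and 46 lower under NPA, and 145 at 12 h (1.73%), 138 higher and 7 lower. The difference between the harvests reached 1 in size with the same sign in both repeats for 391 probe sets (4.65%), 218 above 0 (2.59%) and 173 below 0 (2.06%). The 2 closest above this limit stood at 1.00 and the 2 closest below it at 0.995. Faded effects numbered 124 (1.48%), 114 of them higher under NPA at 6 h. Of these 114, 58 were under 0.5 at 12 h and 56 kept a smaller difference in the same direction. Their median effect was 1.82 at 6 h and 0.47 at 12 h. Persisting effects numbered 62 (0.738%), all higher under NPA, with medians of 1.92 and 1.61. In 23 probe sets (0.274%) the effect grew, 18 of them higher under NPA, with medians of 0.25 at 6 h and 1.64 at 12 h. In 107 probe sets (1.27%) the effect reversed, with opposite signs at the harvests in both repeats and at least 0.5 on each side. Of these, 98 ran from lower to higher under NPA, with medians of -0.87 and 0.73, and 9 ran the other way. The remaining 63 effects met none of these patterns. The order of these counts depended on the size asked for and on the repeat: at 1.5 there were 61 reversed and 40 faded, in repeat 1 alone 113 persisting, 109 faded and 46 reversed, and in repeat 2 alone 301 reversed, 146 faded and 25 persisting.

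The patterns lay mostly among dim probe sets: of the classified sets, 31 of 124 faded, 18 of 62 persisting, 4 of 23 grown and 21 of 107 reversed ones had a mean level above the median of all probe sets. The water values of AOS, PTI5 and TSI-1 at 6 h, given below, were also among the lowest on the arrays. With arrays scaled to the poly-A controls the counts would be 12 faded, 118 persisting, 1133 grown and 2291 reversed. That scaling adds the same 1.22 to the difference of every probe set. All 218 steady differences above 0 therefore had to stay above 0, which is no check of them. Of the 173 below 0, 103 would stay below.

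**Figure D3:**
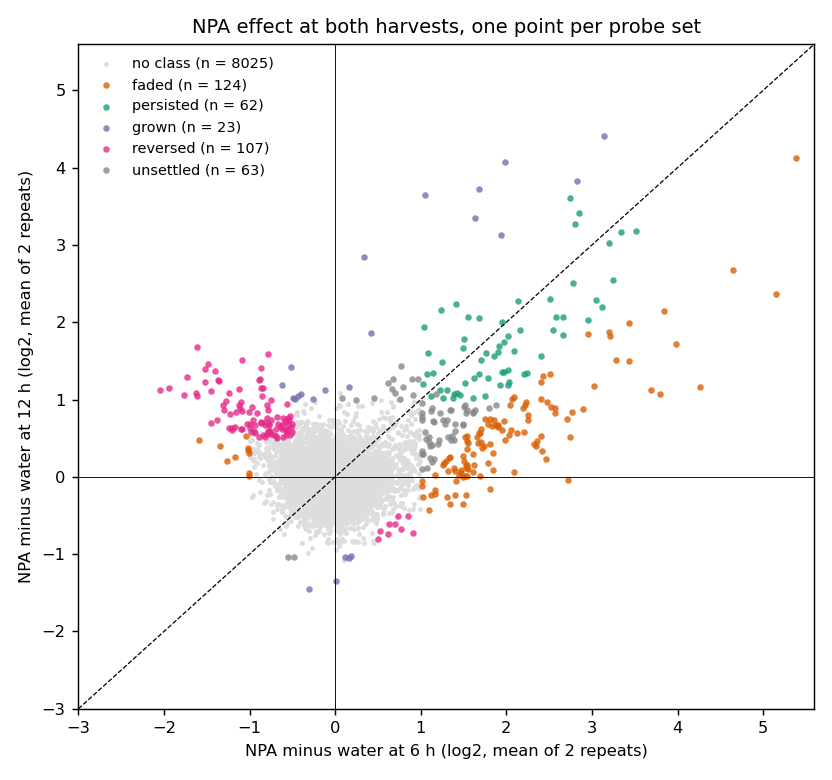
NPA minus water at 6 h (x axis) and at 12 h (y axis), log2, mean of 2 repeats, for 8404 probe sets coloured by pattern, with the line of equality dashed. Faded effects (n = 124) lie mostly to the right below the line, reversed ones (n = 107) mostly at the upper left, and grown ones (n = 23) mostly above the line.

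Patterns drawn from 1 repeat could be read in the other, which had no part in the choice. Of 104 probe sets that were higher under NPA and faded when repeat 1 alone was read, 61 did so in repeat 2 (58.7%, against 1.44% of all probe sets), with repeat 2 medians of 1.41 at 6 h and 0.09 at 12 h. Of 35 that ran from lower to higher in repeat 1, 28 did so in repeat 2 (80%, against 2.87%), with medians of -1.46 and 1.39. Read the other way, 61 of 121 faded and higher in repeat 2 did so in repeat 1 (50.4%, against 1.24%), whereas of 241 that ran from lower to higher in repeat 2, 28 did so in repeat 1 (11.6%, against 0.416%), with medians of -0.41 and 0.33. Of 113 that persisted in repeat 1, 17 persisted in repeat 2 (15%, against 0.297%), where their medians were 1.17 at 6 h and 0.53 at 12 h, and these 17 were 68% of the 25 that persisted in repeat 2. Of 24 probe sets grown and higher in repeat 1, 3 were so in repeat 2 (12.5%, against 0.19%), and of 16 in repeat 2 the same 3 were so in repeat 1 (18.8%, against 0.286%). For grown and lower these were 1 of 20 (5%, against 0.178%) and 1 of 15 (6.67%, against 0.238%). Reversals from higher to lower gave 3 of 11 (27.3%, against 0.714%) and 3 of 60 (5%, against 0.131%). Faded and lower gave 2 of 5 (40%, against 0.297%) and 2 of 25 (8%, against 0.0595%).

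Single enzymes of jasmonate and of polyamine synthesis, AOS and ODC, were among the fading genes. Of 12 jasmonate probe sets 1 faded and 1 reversed, and of 6 polyamine ones 1 faded. Over all probe sets 1.48% faded and 1.27% reversed. AOS, allene oxide synthase, read 4.11 and 4.63 in water and 6.74 and 6.71 in NPA at 6 h, and 3.76 and 4.09 in water and 4.66 and 4.12 in NPA at 12 h. Its NPA arrays stood more than 2 above both water arrays at 6 h. At 12 h both lay above the water arrays, that of repeat 2 only just, at 4.12 against 4.09. The effect was 2.36 at 6 h and 0.47 at 12 h, a difference of -1.89 (SE 0.35, limma adjusted p = 0.185, and 0.0963 with the block). AOS fell by 2.34 between harvests in NPA leaves (adjusted p = 0.00264), while in water leaves the time change was -0.45 (adjusted p = 0.24).

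ODC, ornithine decarboxylase of polyamine synthesis, read 8.60 and 8.59 in water and 10.32 and 10.25 in NPA at 6 h, and 7.81 and 8.60 in water and 8.32 and 8.11 in NPA at 12 h. At 6 h both NPA arrays lay above both water arrays, and at 12 h the groups overlapped. Its effect went from 1.69 to 0.01, a difference of -1.68 (SE 0.35, limma adjusted p = 0.185). All 6 polyamine probe sets, of 3 genes, had a difference below 0, against 4570 of all 8404. Their median was -0.52 against -0.04 over all probe sets. ADC, an arginine decarboxylase, stood at -1.095 (unadjusted p = 0.0448), and 4 adc1 probe sets ranged from -0.54 to -0.14. ADC itself fell between harvests in both treatments, by 1.61 in water and by 2.71 in NPA (adjusted p = 0.0165 and 0.00334).

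SPM1, the named gene with the smallest p, read 10.12 and 10.14 in water and 11.92 and 11.95 in NPA at 6 h, and 9.30 and 9.39 in water and 9.11 and 9.26 in NPA at 12 h. Both NPA arrays stood above both water arrays at 6 h and below both at 12 h. The difference between the effects was -1.99 and -1.94 in the 2 repeats. It fell between harvests in water by 0.79 (limma adjusted p = 0.00692) and in NPA by 2.75 (adjusted p = 0.000102).

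Of 12 jasmonate probe sets, 4 were below 0 at an unadjusted p under 0.05 and 1 above, against 5.41% and 7.95% of all probe sets, with a median of -0.48. The 4 were AOS, AOC, OPR3 and MYC2. AOC, allene oxide cyclase, stood at -0.80, with effects of 0.97 at 6 h and 0.17 at 12 h. OPR3, the OPDA reductase of jasmonate synthesis, stood at -0.61. It read 9.27 in both water and 9.80 and 9.81 in both NPA arrays at 6 h, and all 4 arrays lay between 9.21 and 9.37 at 12 h. MYC2, the jasmonate transcription factor, stood at -0.71 and lies outside the naming rule. The 1 above 0 was opr2, described with the reversed genes.

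ERF transcription factors bind ethylene- and pathogen-responsive promoters. Of 14 ERF and DREB probe sets 10 were below 0, against 4570 of all 8404, with a median of -0.56 against -0.04. At an unadjusted p under 0.05, 2 were below 0, PTI4 and PTI6, against 5.41% of all probe sets, and none above. PTI5, an ERF protein that interacts with the Pto resistance kinase, read 4.39 and 4.14 in water and 9.27 and 7.22 in NPA at 6 h, and 5.74 and 5.27 in water and 8.50 and 5.96 in NPA at 12 h. Both NPA arrays lay above both water arrays at each harvest, by a margin that shrank from 3.98 to 1.73. The difference of -2.26 was even between repeats, at -2.12 and -2.39, yet its SE was 1.3 because the arrays of a group lay far apart (limma adjusted p = 0.513, and 0.194 with the block). PTI6 stood at -1.32 (SE 0.49, adjusted p = 0.335), with effects of 1.62 and 0.30.

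PTI4 read 10.36 and 10.53 in water and 11.38 and 11.14 in NPA at 6 h, and 11.59 and 11.43 in water and 11.52 and 11.40 in NPA at 12 h. Here the water arrays came up to the NPA level: PTI4 rose by 1.07 between harvests in water (limma adjusted p = 0.00554), and the time change in NPA was 0.20 (adjusted p = 0.337). The difference was -0.87 (SE 0.20, adjusted p = 0.191). The median time change of the 14 ERF and DREB probe sets was 0.72 in water and 0.04 in NPA. EREB had the same shape, with effects of 1.1 and -0.43 and time changes of 1.56 in water and 0.03 in NPA, neither past the test.

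**Figure D4:**
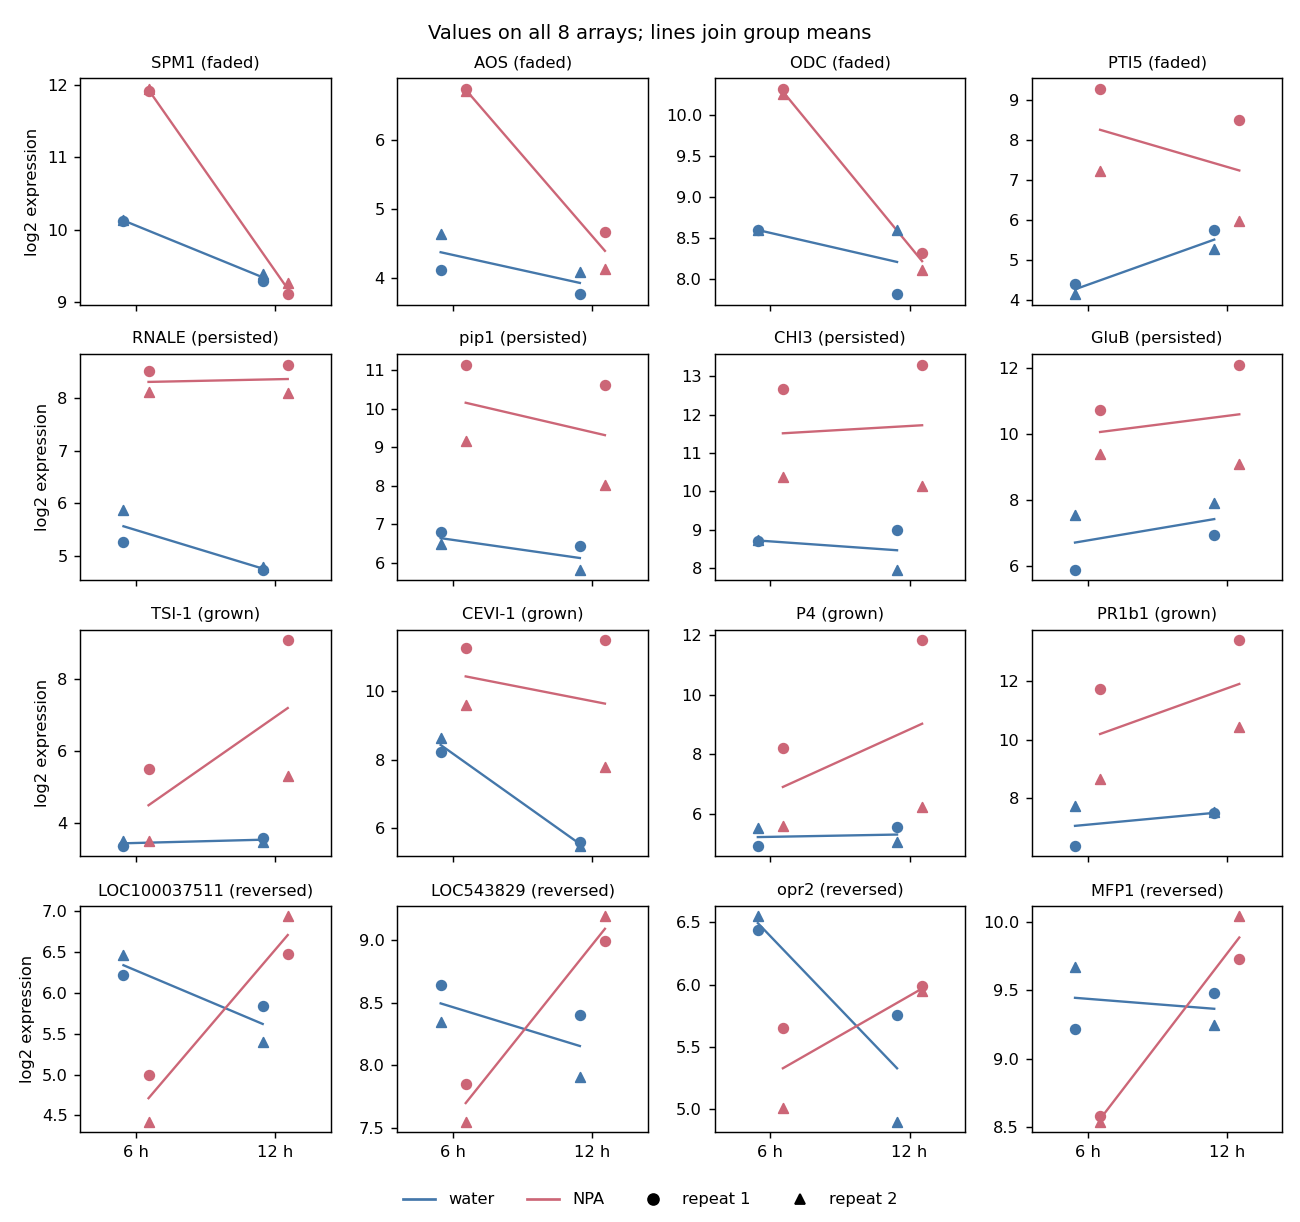
Log2 expression on all 8 arrays for 4 genes of each pattern, water in blue and NPA in red, circles for repeat 1 and triangles for repeat 2, with lines joining group means. In the top row NPA lies above water at 6 h and near it at 12 h for SPM1, AOS and ODC, and in the bottom row NPA lies below water at 6 h and above it at 12 h.

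Fading was also found in genes of other roles. MTS1, a monoterpene synthase of leaf trichomes, had effects of 1.51 and 0.21 and fell by 1.87 between harvests in NPA leaves (limma adjusted p = 0.0136). Its levels, from 3.30 to 6.03, were among the dimmest on the arrays. HSP17.4, a small heat shock protein, had effects of 1.68 and 0.57, and GST-T4, a glutathione transferase, of 1.84 and 0.66. ARG2, an arginase that degrades arginine in the gut of feeding insects, was read by 3 probe sets that differed in pattern. One faded from 2.25 to 0.81, whereas the others held 1.97 and 1.74 in one case and 1.77 and 1.61 in the other. ACO4, an ACC oxidase of ethylene synthesis, stood at -0.73 (SE 0.16, adjusted p = 0.189), with effects of 0.87 and 0.14 and no overlap between treatments at 6 h. Of 24 ethylene probe sets 19 were below 0, against 4570 of all 8404, with a median of -0.36. At an unadjusted p under 0.05, 3 were below and 1 above 0, against 5.41% and 7.95% of all probe sets. The 3 were ACO4, the ethylene receptor ETR6 at -0.69 and EIL4 at -0.54, and the 1 above was CTR4 at 0.54.

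The unnamed probe set with the largest fading read 4.39 and 4.80 in water and 9.39 and 8.32 in NPA at 6 h, and 6.25 and 6.53 in water and 8.31 and 6.80 in NPA at 12 h. All NPA arrays lay above the water arrays of their harvest, with effects of 4.26 and 1.17 and a difference of -3.10 (SE 0.76, limma adjusted p = 0.2). The unnamed fading probe set with the smallest p was more even, at -1.42 and -1.39 in the 2 repeats (SE 0.16, adjusted p = 0.14).

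Among named genes the persisting effects included those of defence proteins and of a ribonuclease, and 39 of the 62 persisting probe sets were unnamed. RNALE, a ribonuclease that tomato makes under phosphate starvation, was the only named gene past the test at both harvests. It read 5.26 and 5.87 in water and 8.51 and 8.11 in NPA at 6 h, and 4.73 and 4.79 in water and 8.64 and 8.09 in NPA at 12 h. NPA arrays stayed between 8.09 and 8.64 while both water arrays at 12 h lay below those at 6 h. The effect was 2.75 at 6 h (limma adjusted p = 0.04) and 3.61 at 12 h (adjusted p = 0.0483), and the difference of 0.86 (SE 0.39) had an adjusted p of 0.401. Its 6 h call was lost on leaving out any 1 of 6 of the 8 arrays, that is either array of water or NPA at 6 h or of water at 12 h (0.0306 to 0.277 over the 8). Its 12 h call was lost with the replicate block (adjusted p = 0.158), with array weights (0.0815) and on leaving out any array but the NPA array of repeat 2 at 12 h (0.0444 to 0.452 over the 8). Of the 5 phosphate starvation probe sets, PAP1, an acid phosphatase, stood at 0.87 with effects of 0.06 and 0.92, and the phosphate transporter PT1 stood at -0.16 with 0.73 and 0.57. None of the 5 was at an unadjusted p under 0.05.

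Of 13 PR probe sets 8 persisted and 3 grew, against 0.738% and 0.274% of all probe sets, with median effects of 2.78 at 6 h and 2.51 at 12 h and a median difference of 0.21. None was at an unadjusted p under 0.05 for the difference. The list was chosen with earlier results of these data known, so its counts describe its members and test nothing. CHI3, an acidic chitinase, had effects of 2.80 and 3.27, and GluB, a beta-1,3-glucanase, of 3.35 and 3.17. The apoplastic cysteine protease pip1, which is in no PR list, had effects of 3.51 and 3.19. All NPA arrays of these 3 genes lay above all their water arrays.

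Their size depended on the repeat. CHI3 read 12.66 in NPA of repeat 1 and 10.37 in NPA of repeat 2 at 6 h, and 13.31 and 10.14 at 12 h. Its water arrays lay between 7.94 and 8.98. Over the 62 persisting probe sets the median effect was 2.23 and 2.30 in repeat 1, at 6 h and 12 h, and 1.49 and 0.86 in repeat 2. THT1-3, a tyramine hydroxycinnamoyltransferase that makes wall-bound amides, had effects of 2.67 and 2.07 and also lay higher in NPA of repeat 1.

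The 18 grown effects in which NPA stood higher had median 12 h effects of 2.52 in repeat 1 and 1.42 in repeat 2, and median differences of 1.23 and 1.78. TSI-1, a stress-induced protein, read 3.36 and 3.51 in water and 5.49 and 3.49 in NPA at 6 h, and 3.59 and 3.48 in water and 9.06 and 5.31 in NPA at 12 h. In repeat 2 NPA stood 0.02 below water at 6 h and 1.83 above it at 12 h. Its difference was 3.34 and 1.85 in the 2 repeats, a mean of 2.60 with an SE of 1.67 (limma adjusted p = 0.562). P4, a PR-1 protein, read 4.91 and 5.51 in water and 8.22 and 5.57 in NPA at 6 h, and 5.54 and 5.05 in water and 11.82 and 6.22 in NPA at 12 h. Its water arrays stayed between 4.91 and 5.54, and the difference was 2.97 and 1.11. PR1b1, another PR-1 protein, had effects of 3.15 and 4.42 and differences of 0.53 and 2.01. PR-P2, a PR-4 protein outside the naming rule, was the remaining PR gene that grew, at 1.00.

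CEVI-1, a peroxidase, grew in another way. It read 8.22 and 8.63 in water and 11.25 and 9.58 in NPA at 6 h, and 5.61 and 5.49 in water and 11.46 and 7.79 in NPA at 12 h. Water arrays at 12 h lay below every other array, with a time change of -2.88 in water and -0.79 in NPA, neither past the test (limma adjusted p = 0.115 and 0.638). The difference was 2.82 and 1.35 in the 2 repeats. The unnamed probe set that grew most did so by 4.01 in repeat 1 and 1.02 in repeat 2. Among the 5 that grew downward, LOC544187 was the named gene. Its effect was -0.31 at 6 h and -1.45 at 12 h, and it fell by 1.3 in NPA leaves (adjusted p = 0.0162). That fall was not past the test with poly-A control scaling (adjusted p = 0.177).

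The reversed genes ran from below water at 6 h to above it at 12 h. LOC100037511 read 6.22 and 6.46 in water and 5.0 and 4.42 in NPA at 6 h, and 5.84 and 5.40 in water and 6.48 and 6.94 in NPA at 12 h. NPA lay below both water arrays at 6 h and above all water arrays at 12 h. The effects were -1.63 and 1.09, a difference of 2.72 (SE 0.38, limma adjusted p = 0.182, and 0.0963 with the block). It rose by 2.0 in NPA leaves between harvests (adjusted p = 0.00499), and its time change in water was -0.72 (adjusted p = 0.101).

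MFP1, a coiled-coil filament protein of thylakoids and nuclear matrix attachment, read 9.22 and 9.67 in water and 8.58 and 8.54 in NPA at 6 h, and 9.48 and 9.25 in water and 9.73 and 10.04 in NPA at 12 h. The water arrays of both harvests shared 1 range while NPA arrays crossed it. MFP1 rose by 1.33 in NPA (limma adjusted p = 0.00652), against -0.08 in water, and its difference was 1.41 (SE 0.27, adjusted p = 0.185). LOC543829 behaved alike, with effects of -0.80 and 0.94 and a rise of 1.39 in NPA (adjusted p = 0.00753). TBG4, a beta-galactosidase of the cell wall, rose by 1.39 in NPA (adjusted p = 0.022), with a time change of 0.02 in water and a difference of 1.37.

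In opr2, an OPDA reductase, the water arrays took the larger share. It read 6.44 and 6.55 in water and 5.65 and 5.01 in NPA at 6 h, and 5.76 and 4.90 in water and 5.99 and 5.95 in NPA at 12 h. NPA lay below water at 6 h and above it at 12 h in both repeats. It fell by 1.17 in water (limma adjusted p = 0.0426, and 0.0299 to 0.158 without 1 array), and the time change in NPA was 0.64 (adjusted p = 0.18). The difference was 1.81 (SE 0.45), with 1.02 in repeat 1 and 2.59 in repeat 2. LOC543681 was the remaining named reversal, at 1.54.

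As a class the 98 reversals from lower to higher were larger in repeat 2. Their median effects were -0.56 and 0.47 in repeat 1 and -1.18 and 1.03 in repeat 2. Poly-A controls moved against them, by a median of -0.94 in repeat 1 and -1.49 in repeat 2. At 6 h in repeat 2 the poly-A controls stood 0.56 higher in NPA than in water, and at 12 h they stood 0.89 lower. Their part in the reversal was not tested. The largest reversal was that of an unnamed probe set, at 2.06 and 4.52, and another unnamed one, with the smallest p above 0, stood at 1.73 and 2.15 (SE 0.19, limma adjusted p = 0.11).

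Smaller differences above 0 were found in plastid isoprenoid genes. Of 13 carotenoid and abscisic acid probe sets, 4 were above 0 at an unadjusted p under 0.05 and none below, against 7.95% and 5.41% of all probe sets, and the median over the list was 0.41. PDS, the phytoene desaturase, read 10.21 and 10.34 in water and 9.69 and 9.70 in NPA at 6 h, and 9.66 and 9.43 in water and 9.85 and 9.84 in NPA at 12 h. NPA arrays kept a range of 9.69 to 9.85 while water fell by 0.73 (limma adjusted p = 0.0115). The difference was 0.88 (SE 0.18, adjusted p = 0.185), from an effect of -0.58 to one of 0.30. The phytoene synthase PSY2 went from -0.57 to 0.04, and FLACCA, which activates the molybdenum cofactor of abscisic aldehyde oxidase, from 0.16 to 0.95. The 2 probe sets of phytoene synthase Psy1 disagreed: one went from -0.37 to 0.50, and the other from 0.27 to 0.02, with time changes of 3.45 in water and 3.19 in NPA.

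HDS, an enzyme of the plastid isoprenoid precursor pathway that is not in this list, went from -0.38 to 0.48 (difference 0.86, SE 0.19, limma adjusted p = 0.191). AGPL3, a large subunit of ADP-glucose pyrophosphorylase in starch synthesis, went from -0.51 to 0.21. TBG5, a beta-galactosidase, went from -0.60 to 0.44. In AGPL3 and TBG5 the water arrays fell, by 0.86 and 0.87 (adjusted p = 0.00588 and 0.0142), and the NPA time changes were -0.15 and 0.17. None of FLACCA, PDS, HDS, AGPL3 and TBG5 met a pattern.

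Across the 391 steady differences, the NPA arrays alone moved more often than the water arrays alone. The NPA time change was at least 1 with water under 0.5 in 141 (36.1%), and the water time change was at least 1 with NPA under 0.5 in 40 (10.2%). In 67 (17.1%) both were at least 0.5 in opposite directions, in 52 (13.3%) both were at least 0.5 in the same direction, and 91 (23.3%) met no such pattern. The NPA time change was the larger in 268 of 391. Over all 8404 probe sets the time change was at least 1 in size in 1017 and 1088 in NPA (repeats 1 and 2). In water these counts were 937 and 911. With repeat 1 read alone, NPA alone moved in 96, water alone in 34, and the 2 moved apart in 29. With repeat 2 read alone these counts were 178, 94 and 190. Of the 114 faded effects that were higher at 6 h, NPA alone moved in 40, both moved together in 26, water alone moved in 19 and the 2 moved apart in 15. Of 98 reversals from lower to higher, NPA alone moved in 47, the 2 moved apart in 34 and water alone moved in 7, and none moved in the same direction by the measure used. Median time changes were 0.21 in water and -1.11 in NPA for the faded effects, and -0.40 and 1.21 for these reversals. With arrays scaled to the poly-A controls, the counts over all probe sets would be 1980 with NPA alone, 450 with water alone, 1571 apart and 300 together.

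**Figure D5:**
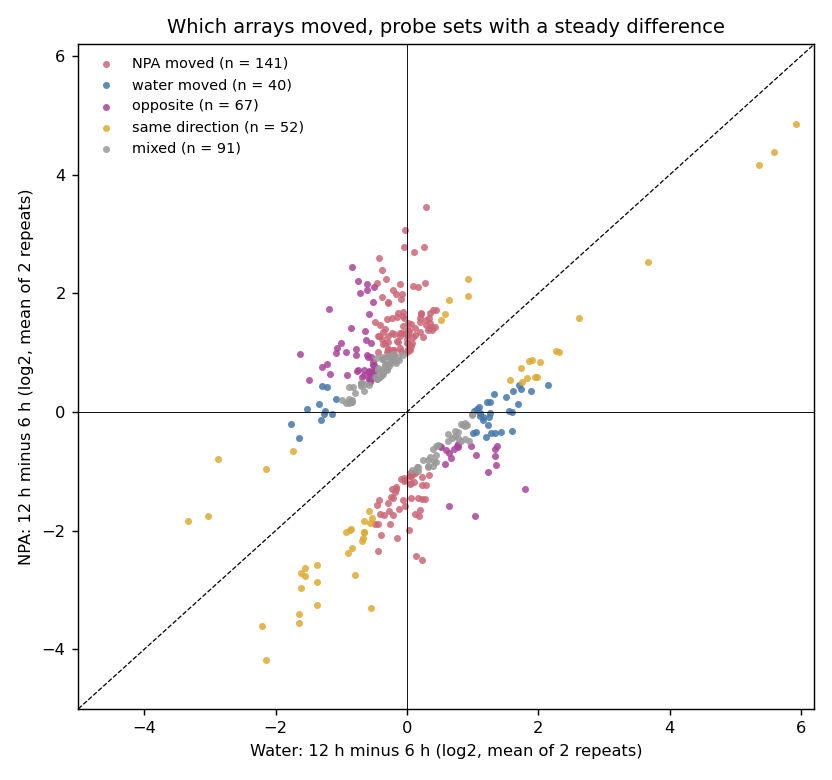
Time change (12 h minus 6 h, log2, mean of 2 repeats) in water on the x axis and in NPA on the y axis for the 391 probe sets whose difference reached 1 in size with 1 sign in both repeats. Points above the dashed line of equality have a difference above 0 (n = 218), and most of them lie above 0 for NPA and near or below 0 for water.

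Regulatory genes were among those in which mainly the water arrays moved. MKK4, a MAP kinase kinase, read 10.53 and 10.78 in water and 11.38 and 11.48 in NPA at 6 h, and 11.36 and 12.00 in water and 11.56 and 11.34 in NPA at 12 h. It rose by 1.03 in water (limma adjusted p = 0.0234), and its NPA time change was 0.02. At 6 h NPA lay above both water arrays, and at 12 h the treatments overlapped. The cyclin-dependent kinase inhibitor krp2 rose by 1.05 in water (adjusted p = 0.00433) with a time change of 0.15 in NPA and a difference of -0.91 (SE 0.18, adjusted p = 0.185). WRKYIId-4, a WRKY transcription factor, rose by 1.13 in water (adjusted p = 0.0107), with 0.51 in NPA and a difference of -0.63. With poly-A control scaling the water rises of PTI4, MKK4, krp2 and WRKYIId-4 were not past the test, at adjusted p of 0.124, 0.191, 0.109 and 0.125. Leaving out the water array of repeat 1 at 6 h ended the calls for the water time change of SPM1, ADC, PTI4, PDS, TBG5, MKK4, WRKYIId-4 and opr2, with adjusted p from 0.0506 in PTI4 to 0.148 in opr2. Leaving out the water array of repeat 2 at 12 h ended those of PDS, TBG5, MKK4, WRKYIId-4 and opr2, and leaving out that of repeat 2 at 6 h those of ADC, PDS, TBG5, MKK4 and opr2. The ADC call was also lost without the water array of repeat 1 at 12 h, and that of opr2 without either NPA array at 12 h. For the time change in NPA, TBG4 and LOC544187 lost the call without either NPA array at 6 h. TBG4 also lost it without the NPA array of repeat 2 at 12 h, and LOC544187 and MTS1 without that of repeat 1 at 12 h. The highest adjusted p of the 3 were 0.0907, 0.0745 and 0.0533. All 4 WRKY probe sets were below 0, against 4570 of all 8404, with a median of -0.46, and none was at an unadjusted p under 0.05. Matching synonyms too gave 7 probe sets of 6 genes, all below 0, with a median of -0.415. Of these 7, 1 was at an unadjusted p under 0.05.

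The counts of the other lists are read against 7.95% above and 5.41% below 0 over all probe sets at an unadjusted p under 0.05. Cell wall enzymes had 3 of 37 probe sets above 0 at that p, near the share of all probe sets, and none below (TBG4, TBG5 and Cel1), with a median of 0.01. Light and clock regulators had 2 of 14 above, CRY2 at 0.43 and DET1 at 0.52, and a median of 0.06. Redox genes had 1 of 13 above, MDHAR at 0.47, and carbon metabolism 1 of 20, AGPL3, with a median of 0.30. MAP kinase, calcium and resistance genes had 1 above, MAPK10 at 0.72, and 1 below, MKK4, of 14. Cell cycle genes had 1 of 16 below, krp2, and auxin genes 1 of 10 above, ARF3 at 0.61. Wound and anti-herbivore genes had 1 of 12 above, LEJA1 at 1.01, and 2 below, MTS1 and the fading ARG2 probe set, with a median of -0.20. No member was at an unadjusted p under 0.05 among 7 photosynthesis, 6 ribosomal, 6 phenylpropanoid or 5 heat shock probe sets. Neither was NPR1 at 0.25 or GST-T4 at -1.18. All 6 phenylpropanoid probe sets were below 0, against 4570 of all 8404, with a median of -0.35.

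Of the leaf markers, the chlorophyll-binding genes CAB4 and CAB6A were bright, at 11.03 or more on every array. CAB5 ranged from 13.82 at 6 h to 8.05 at 12 h, and this lowest value lay below the lowest array median of 8.77. CAB5, CAB4 and CAB6A fell between harvests in both treatments, and CAB5 fell by 4.55 in water and fell by 5.33 in NPA (limma adjusted p = 0.000462 and 0.000258), and their differences between the effects were -0.78, -0.23 and -0.10. The trichome genes MTS1 and SSTLE1 had differences of -1.31 and 0.22, the root gene RSI-1 of 0.21, and the flower genes TPRP-F1 and TDR6 of -1.03 and 1.31, with levels of at most 9.11. In whole leaves, fewer cells of a type and less RNA per cell cannot be told apart.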

How the data were processed

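The authors deposited log2 expression values for 8 arrays, made with RMA per the submitters' processing notes. No RMA version or setting was stated. No detection calls were used, and values lay between 2.68 and 14.6. Of 8488 rows 84 array controls were left out of the tests. Platform annotation gave 753 of the 8404 others 1 symbol, and 739 of these matched RefSeq genes (assembly SLM_r2.1).

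The 4 group means were fitted by lmFit and eBayes (limma 3.58.1, R 4.3.3), with 4 residual and 2.55 prior degrees of freedom, with the contrast NPA minus water at 12 h less NPA minus water at 6 h, both of its parts, and the time changes. P-values are two-sided, with Benjamini-Hochberg adjustment over 8404 probe sets and a threshold of 0.05. They rest on the spread between the 2 arrays of each group, which differ in pool of plants and also in repeat of the experiment. The 2 arrays of a group limit the precision. Arrays of a group correlated between 0.968 and 0.987. Deviations of same-numbered arrays from their groups correlated at 0.316 to 0.596 in the 6 pairs of groups. Pairing rests on the series design text, which says that the experiment was done again as a whole. The main fit has no term for the repeat.

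Patterns and the question of which arrays moved were described by size (1, with 0.5 for small) and sign in both repeats, with no test. Named genes were, by rule, the 10 with the smallest p in each direction with the same sign in both repeats, up to 4 per pattern and direction by size, up to 4 per gene list by p, and a few unnamed probe sets. The members, the 22 gene lists and the rule were chosen with earlier results of these data known. On simulated data for this contrast (8404 probe sets, 200 changed in each of 5 runs) the fit recovered 31.6% of changes of 1, 90% of 2, 96% of 3 and 97.6% of 4, and made 9.6 false calls a run. The simulated noise was drawn independently for each array, whereas the real same-numbered arrays deviated together. These shares therefore do not say how many real changes went uncalled. Alternatives were the repeat as a block, other normalizations, a filter on level, eBayes options, array weights, other size thresholds and leaving out each array. Scaling to the poly-A controls, reading each repeat alone and matching WRKY synonyms were chosen after seeing the data. Promoter motifs were not run and no sequences are shown. Python 3.11.15 and matplotlib 3.10.9 drew the figures.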

Additional observations from a re-analysis of the deposited data

Results flagged for a closer look

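In 6 named genes both repeats put NPA below water at 6 h and above it at 12 h, with a mean of at least 0.5 on each side and a difference of at least 1. The difference between the effects was 2.72 in LOC100037511, 1.81 in opr2, 1.73 in LOC543829, 1.54 in LOC543681, 1.41 in MFP1 and 1.37 in TBG4. Each was tested in limma and none passed after adjustment, with adjusted p from 0.182 in LOC100037511 to 0.385 in LOC543681.

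The 36 poly-A control probe sets were not tested themselves and served only for the poly-A control scaling. They had a median difference between the effects of -1.21, with -0.94 in repeat 1 and -1.49 in repeat 2. All 36 lay below 0, between -1.53 and -0.94. The log2 ratio of 3 prime to 5 prime probe sets moved in the same contrast by 0.03 for actin, 0.21 for GAPDH and 0.00 for ubiquitin. That of GAPDH ranged from 0.06 to 0.43 over the 8 arrays. In the glutathione transferase control described next, the 3 prime probe set had a difference of -1.33 and the 5 prime one of -0.24.

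The glutathione transferase control AFFX-Le_GlutTrans_3_at, also outside the tests, read 9.13 and 9.24 in water and 11.23 and 10.73 in NPA at 6 h. At 12 h it read 8.98 and 9.18 in water and 9.63 and 9.46 in NPA. All NPA arrays lay above the water arrays, by 1.80 on average at 6 h and by 0.47 at 12 h. The other 2 probe sets of this control had effects of 1.55 and 0.30 in one case and 0.34 and 0.10 in the other, whose treatments overlapped at both harvests.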

How the results depend on the processing

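The count of 0 for the change of the NPA effect was also 0 with the replicate block, median centring, robust estimation and array weights. It was 1 with an intensity trend, 1 among probe sets above the median level, 2 after quantile normalization, 5861 with poly-A control scaling, and 0 to 1 when an array was left out. SPM1 passed with the trend (adjusted p = 0.0491), the level filter (0.0171) and quantile normalization (0.0481). At an unadjusted p the count of 1123 became 548 with the filter, which tests fewer probe sets, 1864 with the replicate block, 6434 with poly-A scaling and 649 to 1228 without 1 array. The NPA effect at 6 h had 14 calls, 9 with the trend, 5 with the filter, 108 with the block, 112 with poly-A scaling and 0 to 22 without 1 array. At 12 h there was 1 call, 0 with array weights, the filter or the block, 2 with the trend, 6208 with poly-A scaling and 0 to 3 without 1 array. The time change in water had 1867 calls, 1157 with the filter, 3144 with the block and 356 to 1740 without 1 array. In NPA it had 2183, 1281 with the filter, 3401 with the block, 5368 with poly-A scaling and 925 to 1892 without 1 array. Patterns, in the order faded, persisted, grown and reversed, numbered 31, 18, 4 and 21 with the filter, 12, 118, 1133 and 2291 with poly-A scaling, and 40, 39, 5 and 61 at a size of 1.5. At 0.75 faded was 252 and grown 61, and after quantile normalization grown was 13. In repeat 1 alone persisted was 113, grown 44 and reversed 46, and in repeat 2 alone persisted was 25 and reversed 301. For NPA moved, water moved, opposite and same direction the counts were 34, 10, 12 and 16 with the filter, 1980, 450, 1571 and 300 with poly-A scaling, and 41, 8, 37 and 8 at 1.5. At 0.75 they were 269 for NPA moved, 123 for water moved and 116 for the same direction. In repeat 2 alone water moved was 94, opposite 190 and same direction 89, and in repeat 1 alone opposite was 29. Probe sets picked above 0 in repeat 1 at 1.5 had a median of 3.11 in repeat 2. Patterns need both repeats, so no array could be left out. Poly-A scaling turned 6 named genes from below to above 0 and past the threshold: HSC80 at 1.11, RPL37 at 0.98, Hsp90-1 at 1.16, CAB6A at 1.12, RPL8 at 1.07 and RPL3 at 1.07. With it 46 of the 117 probe sets chosen by the naming rule passed the threshold in their original direction. It adds the same amount to every difference, so these passes are no independent check. Of 1809 alternative values of these 117 probe sets, 91 had the other sign, 38 of them without poly-A scaling. The cause of these shifts was not tested. Of 22 list medians, that of auxin changed sign with 1 probe set per gene.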
